A study of Homo sapiens with 18 samples.

Results

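ETS factors are transcription factors that share a winged helix-turn-helix DNA-binding domain, the ETS domain, which reads sites built around the bases GGAA. The 9 members described here are ETS1, ETS2, FLI1, ERG, ELF1, ELF4, ETV3, ETV5 and ETV6. They were chosen by name, with earlier results of these data known. Every probe set assigned in the array's annotation to exactly 1 of these symbols was used: 143 of the 287329 probe sets on the arrays, for 9 of the 16260 genes tested. The number of probe sets was 21 for ETS1, 18 for ETS2, 12 for FLI1, 26 for ERG, 15 for ELF1, 16 for ELF4, 7 for ETV3, 17 for ETV5 and 11 for ETV6. A further 5 probe sets assigned to both FLI1 and EWSR1 were left out.

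The cells were HL60, THP-1 and U937, human lines established from myeloid or monocytic leukaemias and related tumours. Each line received 30 nM PMA (phorbol 12-myristate 13-acetate) or the vehicle DMSO for 3 days, in RPMI1640 medium with serum, and total RNA was hybridised to Affymetrix human exon 1.0 ST arrays, which carry probe sets along the exons of each gene. There were 18 arrays in 6 groups of 3: HL60 PMA and HL60 DMSO, THP-1 PMA and THP-1 DMSO, and U937 PMA and U937 DMSO. No knockdown, transgene or allele is named for any group, and the vehicle was used in every line. The labels do not say whether the arrays of a group came from separate cultures, so p-values here reflect no more than the variation from array to array, which may be technical.

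PMA is a stable stand-in for diacylglycerol that activates protein kinase C and, through RAF and MEK, the ERK kinases. ERK phosphorylates several ETS proteins, ETS1 and ETS2 among them, and ETS factors act beside AP-1 and RUNX1 at many promoters of myeloid genes. In blood cells ETS factors serve as lineage regulators: SPI1 drives myeloid fate, FLI1 and ERG act in stem cells and megakaryocytes, and ETV6 is a repressor needed in haematopoietic stem cells. The series compared PMA with DMSO in each line, and the values below are messenger RNA levels, not protein levels or activity.

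Values are log2 gene values, the mean over a gene's probe sets on an array. Array medians over all probe sets ran between 6.18 and 6.95, and arrays of the same group correlated at 0.931 to 0.978 across probe sets. The lowest median belonged to array 2 of U937 PMA, which also held 83228 distinct values against 214471 to 220516 on the other arrays. The members' PMA effects in U937 and the counts there for lists of ETS-related genes are therefore given with and without both U937 arrays numbered 2. All 8 myeloid markers on the list used (SPI1, CD33, LYZ, CSF1R, ITGAM, MPO, ELANE and FCGR1A) were measured, and 7 or 8 of them lay above 5.17, the 30th percentile of probe-set means, in every group. With PMA these 8 moved both ways: 2 rose and 4 fell in HL60, 2 rose and 3 fell in THP-1, and 3 rose and 1 fell in U937. CSF1R and ITGAM rose in each line (3.04 and 3.57 in HL60, 3.07 and 2.98 in THP-1, 2.71 and 2.87 in U937), and the neutrophil elastase gene ELANE fell in each (-3.83, -2.77 and -2.95). The lysozyme gene LYZ fell in HL60 (-1.71) and THP-1 (-2.13), and the Fc receptor gene FCGR1A fell in HL60 (-2.40) and rose in U937 (1.21). Of the lists for other cell types, 4 of 8 T and NK cell markers, 4 of 4 measured B cell markers and 1 to 4 of 6 endothelial markers lay above 5.17 in a group, as did 4 or 5 of 5 measured erythroid and megakaryocyte markers and 2 or 3 of 5 measured epithelial and fibroblast markers. Because these are bulk samples, fewer cells of a type and less RNA per cell cannot be told apart.

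RefSeq promoter windows of 300 bases (build GRCh38.p14) matched 6 of the 9 members, with 14 windows in all. The windows of ETS2 and ETV6 are shown because both genes fell in HL60 cells given PMA, and because the probe sets of ETS2 did not move together. ETS2 has 2 windows, and the sequences run 5′ to 3′ on the plus strand, with each GGAA and its reverse complement in capitals.
ETS2 chr21:38804933-38805232: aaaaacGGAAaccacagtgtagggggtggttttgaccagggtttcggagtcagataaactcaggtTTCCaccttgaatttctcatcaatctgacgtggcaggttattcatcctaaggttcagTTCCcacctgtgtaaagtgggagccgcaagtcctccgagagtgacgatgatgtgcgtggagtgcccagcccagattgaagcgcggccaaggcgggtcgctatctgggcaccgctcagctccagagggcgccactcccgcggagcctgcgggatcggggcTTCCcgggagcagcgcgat
ETS2 chr21:38805679-38805978: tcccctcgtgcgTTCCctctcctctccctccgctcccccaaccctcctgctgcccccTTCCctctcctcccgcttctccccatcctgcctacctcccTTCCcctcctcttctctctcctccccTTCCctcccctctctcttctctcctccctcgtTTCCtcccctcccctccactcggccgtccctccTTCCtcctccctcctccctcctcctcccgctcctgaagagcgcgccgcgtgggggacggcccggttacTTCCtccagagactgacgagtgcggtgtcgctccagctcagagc
ETV6 chr12:11649424-11649723: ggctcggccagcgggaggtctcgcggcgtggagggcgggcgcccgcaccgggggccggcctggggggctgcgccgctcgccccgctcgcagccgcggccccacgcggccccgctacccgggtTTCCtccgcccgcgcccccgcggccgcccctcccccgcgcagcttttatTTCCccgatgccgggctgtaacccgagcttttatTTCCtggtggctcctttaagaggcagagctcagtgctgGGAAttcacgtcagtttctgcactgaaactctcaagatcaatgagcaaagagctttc

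The GGAA core occurred 4 times in the upstream ETS2 window, 7 times in the downstream ETS2 window and 4 times in the ETV6 window, counting both strands. It is common: 95.5% of 35116 RefSeq windows of this length hold it, with a median of 3 matches. Longer motifs were searched on both strands as letters: CCGGAAGT, a strong ETS site that contains the core, TGANTCA, the AP-1 site, and CGCCCNCGC, the EGR site. CCGGAAGT is in 4.14% of all windows and TGANTCA in 7.71%, and neither is in the 3 windows shown. CGCCCNCGC is in 9.43% of all windows, and it matched 2 times in the ETV6 window and in neither ETS2 window. For the serum response element only a single fixed sequence was searched, so other forms of the element were not counted. That exact sequence is in 0.0342% of all windows and was not found in the 3. These counts describe letters in the windows only.

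The 9 members did not share a direction. In HL60, 2 rose (ETS1 and ERG), 3 fell (ETS2, FLI1 and ETV6) and 4 were not called at an adjusted p under 0.05. Over all genes 23% were called in HL60, 12.3% higher and 10.7% lower. In THP-1, 2 rose (ETS1 and ETV5), 1 fell (ELF1) and 6 were not called, against 22.6% called over all genes (9.37% higher, 13.2% lower). In U937 none rose, 5 fell (ETS1, ETS2, FLI1, ERG and ELF1) and 4 were not called, against 22% called over all genes (5.5% higher, 16.5% lower). Without both U937 arrays numbered 2, only the ERG fall was still called there, beside 2973 of all genes in place of 3573. The median PMA effect over the 9 members was 0.31 in HL60, -0.21 in THP-1 and -0.74 in U937, on the log2 scale, beside 0.13, 0.04 and -0.07 over all genes.

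**Figure D1:**
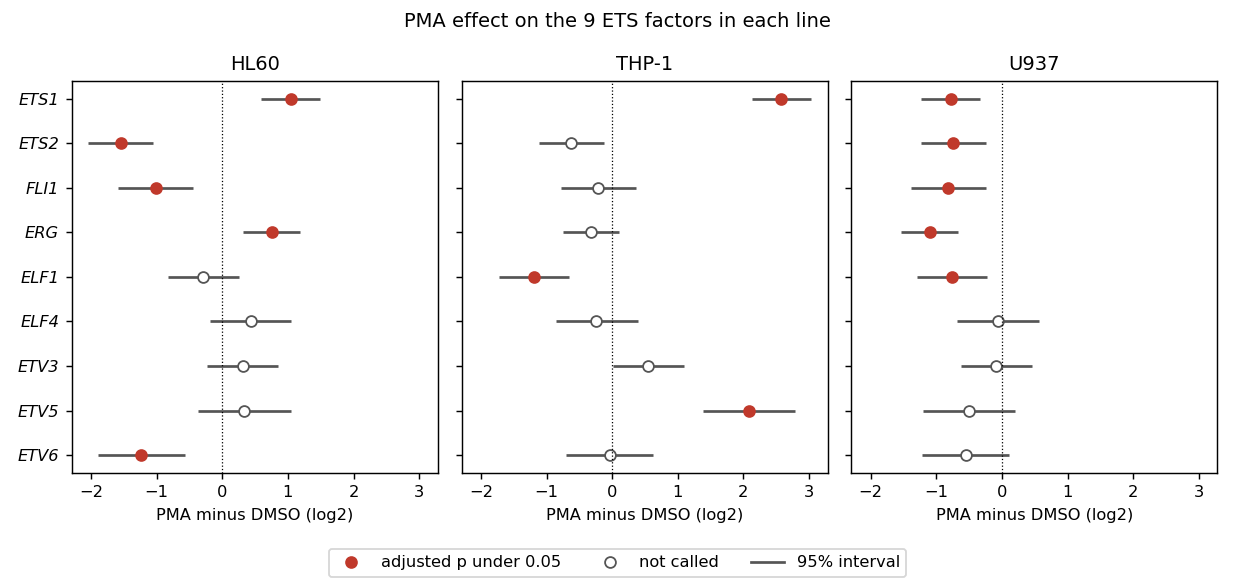
PMA effect (PMA minus DMSO, log2 units, horizontal axis) on each of the 9 ETS factors in HL60, THP-1 and U937, with 95% intervals from limma; filled points have an adjusted p under 0.05. ETS1 lies at 1.04 in HL60, 2.58 in THP-1 and -0.78 in U937, and ETV5 at 2.09 in THP-1.

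ETS1, with ETS2 a founding member of the family and best known as a lymphoid and angiogenic activator, had opposite changes between lines. In THP-1 its log2 gene value was 9.24, 9.47 and 9.19 on the PMA arrays, against 6.70, 6.96 and 6.50 on the DMSO arrays. The groups lay far apart, and ETS1 rose 5.97-fold (2.58 ± 0.21 log2 units, SE, n = 3 each, adjusted p = 1.48e-07), the largest change of a member in any line. In HL60 it was 6.03, 5.65 and 5.77 with PMA and 5.02, 4.94 and 4.38 with DMSO. It rose there by 1.04 ± 0.21 (adjusted p = 0.00127), with no overlap, but the DMSO mean of 4.78 lies below 5.17, with 12 of the 21 probe sets above that mark in HL60 DMSO, so no fold is given. In U937 it was 7.99, 7.29 and 7.77 with PMA, against 8.64, 8.43 and 8.32 with DMSO.

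In U937 ETS1 thus fell 1.72-fold (-0.78 ± 0.21, adjusted p = 0.0123), again without overlap. Without both U937 arrays numbered 2 the fall was -0.60 with an adjusted p of 0.0895, with the U937 arrays fitted alone the adjusted p was 0.0888, and without array 1 of U937 DMSO alone it was 0.0652 (-0.69). The probe sets moved together: 21 of 21 were higher in HL60, 19 of 21 higher in THP-1 and 20 of 21 lower in U937. The differences between lines were themselves tested. The PMA effect on ETS1 in HL60 was below that in THP-1 by 1.54 log2 units (-1.54 ± 0.30, adjusted p = 0.00313), above that in U937 by 1.82 ± 0.30 (adjusted p = 0.000725), and the effect in THP-1 exceeded that in U937 by 3.36 ± 0.30 (adjusted p = 3.04e-06). Over all genes, 7.78% differed between HL60 and THP-1, 7.73% between HL60 and U937, and 4.76% between THP-1 and U937.

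**Figure D2:**
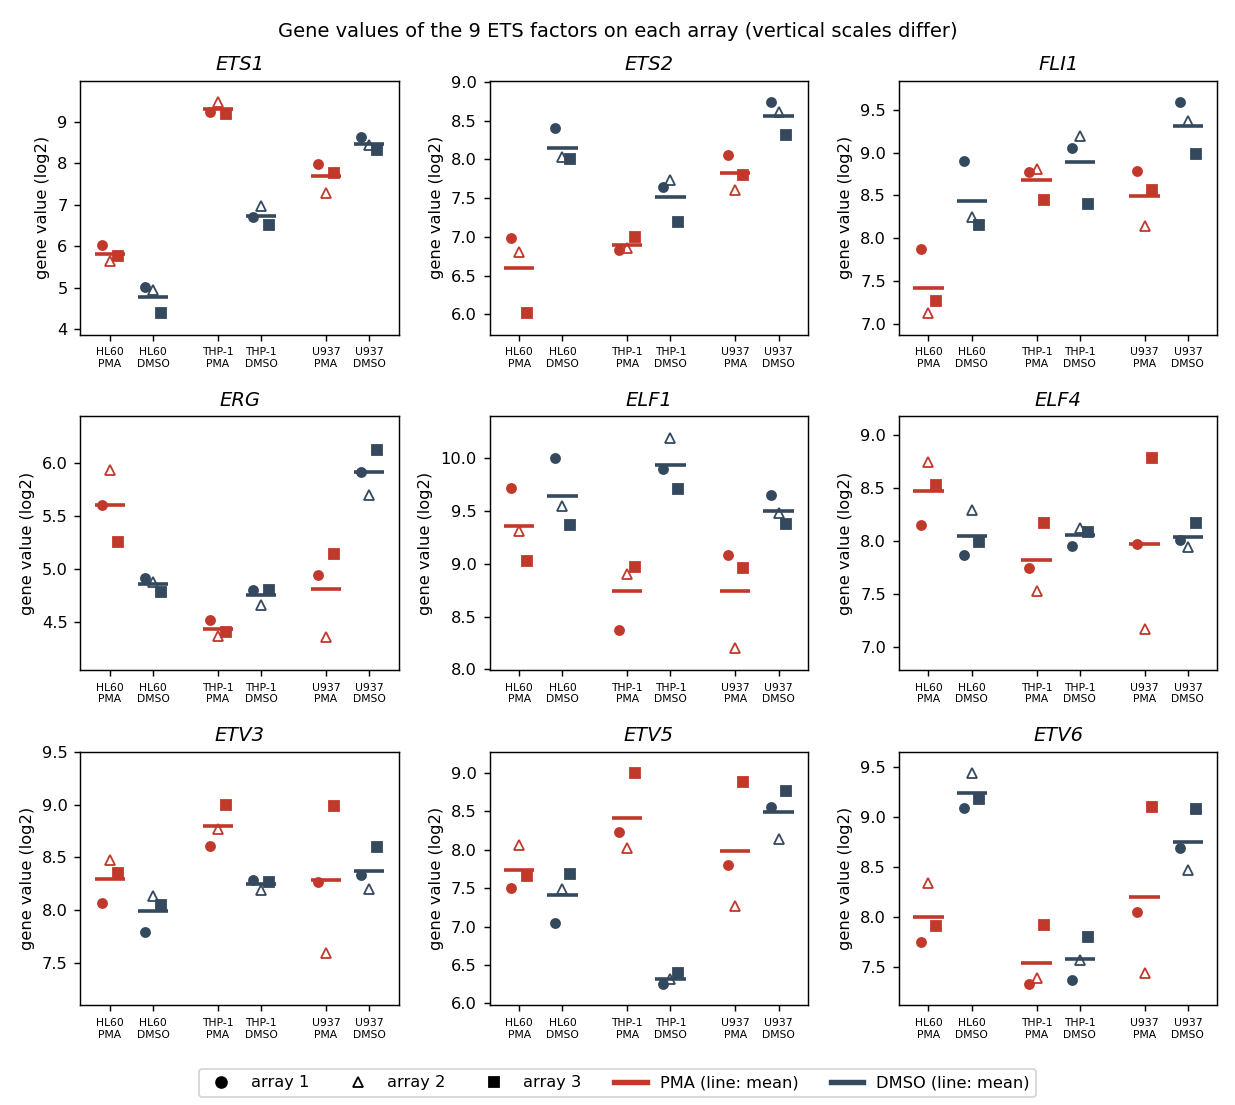
Log2 gene value (vertical axis, scales differ between panels) of each of the 9 ETS factors on each of the 18 arrays, by line and agent; symbols give the array number and lines the group means of 3 arrays. ETS1 with PMA sits at 9.19 to 9.47 in THP-1, above the DMSO arrays at 6.50 to 6.96, and for ELF4, ETV3, ETV5 and ETV6 the U937 PMA arrays 2 and 3 are the lowest and the highest of their group.

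ETS2, a target of ERK phosphorylation that activates urokinase and metalloproteinase promoters, was lower with PMA on average in all 3 lines. In HL60 its value was 6.99, 6.80 and 6.01 with PMA, against 8.41, 8.03 and 8.0 with DMSO, and it fell 2.92-fold (-1.55 ± 0.23, adjusted p = 7.09e-05). In U937 it was 8.06, 7.60 and 7.80 with PMA, against 8.74, 8.61 and 8.32 with DMSO, and it fell 1.67-fold (-0.74 ± 0.23, adjusted p = 0.0306). The groups did not overlap in either line, and the interval of the HL60 difference ran between -2.04 and -1.05. In THP-1 it was 6.83, 6.85 and 7.0 with PMA, against 7.64, 7.73 and 7.19 with DMSO, a difference of -0.63 ± 0.23 that was not called (adjusted p = 0.0649), although the groups did not overlap.

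With the array number as a block the THP-1 difference in ETS2 was called (adjusted p = 0.0168). The U937 call was lost without both arrays numbered 2 (-0.60, adjusted p = 0.191), with quantile normalization (-0.46, adjusted p = 0.115) and with each array centred on its median (-0.50, adjusted p = 0.0807). It was also lost on leaving out array 1 or 2 of U937 DMSO or array 2 or 3 of U937 PMA, with adjusted p-values between 0.0579 and 0.129. As deposited, no difference between lines in the ETS2 effect was called: it was -0.92 ± 0.33 for HL60 minus THP-1 (adjusted p = 0.116), -0.81 ± 0.33 for HL60 minus U937 (adjusted p = 0.182) and 0.11 ± 0.33 for THP-1 minus U937 (adjusted p = 0.951). Blocked by array number, the difference between HL60 and THP-1 was called (adjusted p = 0.0287). Quantile normalization and centring called both HL60 minus THP-1 (-1.05 under each, adjusted p = 0.0224 and 0.0229) and HL60 minus U937 (-1.12 and -1.10, adjusted p = 0.0191 and 0.0207).

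FLI1, an activator of megakaryocyte and endothelial genes whose fusion with EWSR1 marks Ewing sarcoma, fell in HL60 and U937. In HL60 it was 7.87, 7.12 and 7.27 with PMA, against 8.90, 8.25 and 8.15 with DMSO, a 2.02-fold fall (-1.01 ± 0.27, adjusted p = 0.00992) with no overlap. The call was lost without array 1 of HL60 DMSO (-0.78, adjusted p = 0.0699) or array 2 of HL60 PMA (-0.86, adjusted p = 0.0582). In U937 it was 8.78, 8.14 and 8.56 with PMA, against 9.59, 9.37 and 8.98 with DMSO, a 1.76-fold fall (-0.82 ± 0.27, adjusted p = 0.0387). That call was not kept without both U937 arrays numbered 2 (-0.61, adjusted p = 0.257), nor with quantile normalization (-0.55, adjusted p = 0.0784) or centred arrays (-0.58, adjusted p = 0.0674). Leaving out array 1 or 2 of U937 DMSO or array 2 or 3 of U937 PMA alone also ended it, with adjusted p-values between 0.0576 and 0.17.

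In THP-1 the FLI1 groups overlapped, at 8.77, 8.81 and 8.45 with PMA and 9.06, 9.20 and 8.40 with DMSO (-0.21 ± 0.27, adjusted p = 0.648). The interval of that difference ran between -0.78 and 0.37. The effect in HL60 minus that in THP-1 was -0.81 ± 0.38 and was not called (adjusted p = 0.285), but it was called with the array number as a block (adjusted p = 0.0338).

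ERG, the close relative of FLI1 that maintains haematopoietic stem cells and endothelium, had low values, with only 12 of its 26 probe sets above 5.17 on average, and its differences are given without a fold. In HL60 it was 5.61, 5.94 and 5.26 with PMA, against 4.92, 4.88 and 4.78 with DMSO, and it rose by 0.75 ± 0.20 (adjusted p = 0.0116). Without array 2 of HL60 PMA the rise was 0.58 and was not called (adjusted p = 0.0822). In U937 it was 4.94, 4.36 and 5.14 with PMA, against 5.92, 5.70 and 6.13 with DMSO, and it fell to a mean of 4.81, below 5.17 (-1.10 ± 0.20, adjusted p = 0.000693). ERG was the single member of the 5 called in U937 whose call also held without both arrays numbered 2 (-0.98). With only probe sets above the 30th percentile the fall was -0.60, and it was still called.

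In THP-1 cells ERG was 4.52, 4.37 and 4.40 with PMA, against 4.80, 4.66 and 4.80 with DMSO (-0.32 ± 0.20, adjusted p = 0.305). Of its 26 probe sets, 24 were higher with PMA in HL60 and 24 were lower with PMA in U937. The effect in HL60 exceeded that in U937 by 1.85 ± 0.29 (adjusted p = 0.00045) and that in THP-1 by 1.07 ± 0.29 (adjusted p = 0.0296). The difference between HL60 and THP-1 was not called with the median of the probe sets (adjusted p = 0.137) or on leaving out any of 8 single arrays of these lines, with adjusted p-values between 0.0578 and 0.0945. Blocked by array number, the difference between THP-1 and U937 (0.78 ± 0.29, adjusted p = 0.177) was called at an adjusted p of 0.0341. Of 6 endothelial markers, VWF (1.78) and ESAM (0.61) rose in HL60, where ERG rose, and 1 rose in THP-1, where ERG was not called. VWF also rose in U937 (2.45), where ERG fell. The mean level of the 6 endothelial markers was 5.31 to 5.48 in HL60 PMA and 4.81 to 4.92 in HL60 DMSO. It was 4.99 to 5.18 in THP-1 PMA and 4.67 to 4.80 in THP-1 DMSO, and 5.04 to 5.86 in U937 PMA and 4.93 to 5.14 in U937 DMSO. The part of these markers in the ERG result was not tested.

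ELF1, a broadly expressed activator of lymphoid and myeloid genes, fell in THP-1 and U937. In THP-1 it was 8.37, 8.90 and 8.97 with PMA, against 9.90, 10.19 and 9.71 with DMSO, a 2.27-fold fall (-1.19 ± 0.25, adjusted p = 0.00217) with all PMA arrays below all DMSO arrays. In U937 it was 9.08, 8.20 and 8.96 with PMA, against 9.65, 9.48 and 9.38 with DMSO, a 1.69-fold fall (-0.76 ± 0.25, adjusted p = 0.0388). The U937 fall was -0.50 and not called without both arrays numbered 2 (adjusted p = 0.252), and leaving out any U937 DMSO array, array 2 of U937 PMA, array 2 of HL60 PMA or array 1 of THP-1 DMSO raised the adjusted p to between 0.05 and 0.154. In HL60 the ELF1 groups overlapped, at 9.72, 9.31 and 9.03 with PMA and 10.00, 9.55 and 9.37 with DMSO (-0.29 ± 0.25, adjusted p = 0.486). All 15 ELF1 probe sets were lower with PMA in THP-1 and in U937, and 14 of 15 were lower in HL60. The effect in HL60 minus that in THP-1 (0.90 ± 0.36, adjusted p = 0.165) was called only with the array number as a block (adjusted p = 0.0335) or with quantile normalization (adjusted p = 0.0364).

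ELF4, an activator of perforin and interferon genes in natural killer cells and macrophages, was called in no line. It was 8.15, 8.75 and 8.53 with PMA and 7.87, 8.29 and 7.99 with DMSO in HL60, where all 16 probe sets were higher with PMA but the groups overlapped (0.43 ± 0.30, adjusted p = 0.356). In THP-1 it was 7.75, 7.53 and 8.17 with PMA and 7.95, 8.12 and 8.09 with DMSO (-0.24 ± 0.30, adjusted p = 0.63). In U937 the PMA arrays spread over 7.97, 7.17 and 8.79, around the DMSO arrays at 8.01, 7.94 and 8.17 (-0.06 ± 0.30, adjusted p = 0.957, and 0.29, adjusted p = 0.545, without both arrays numbered 2). Changes of up to 1.05 upward in HL60 and 0.86 downward in THP-1 lie within the 95% intervals, so the data do not show that ELF4 was unaltered.

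ETV3, a repressor described in mouse macrophages as linking differentiation to the arrest of growth, was also not called. In THP-1 it was 8.61, 8.77 and 9.0 with PMA, against 8.29, 8.19 and 8.27 with DMSO, without overlap (0.55 ± 0.26, adjusted p = 0.148). The array-number block (adjusted p = 0.0271), quantile normalization (0.67, adjusted p = 0.0119), centring (0.63, adjusted p = 0.0187), the THP-1 arrays alone (adjusted p = 0.0328) and leaving out both U937 arrays numbered 2 (adjusted p = 0.0379) each gave a call there. All 7 ETV3 probe sets were higher with PMA in THP-1. In HL60 ETV3 was 8.07, 8.48 and 8.35 with PMA and 7.79, 8.14 and 8.05 with DMSO (0.31 ± 0.26, adjusted p = 0.452). U937 had values of 8.27, 7.60 and 8.99 with PMA and 8.33, 8.20 and 8.60 with DMSO (-0.09 ± 0.26, adjusted p = 0.931), and without both arrays numbered 2 the difference was 0.17 (adjusted p = 0.666).

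ETV5, a PEA3-group activator that is a usual transcriptional readout of receptor tyrosine kinase and ERK signalling, rose in THP-1. There it was 8.23, 8.02 and 9.0 with PMA, against 6.25, 6.32 and 6.40 with DMSO, a 4.26-fold rise (2.09 ± 0.33, adjusted p = 0.00016). All 17 probe sets were higher with PMA, by 0.16 to 2.71. In HL60 the values overlapped, at 7.50, 8.06 and 7.66 with PMA and 7.05, 7.49 and 7.68 with DMSO (0.33 ± 0.33, adjusted p = 0.543). In U937 they were 7.80, 7.27 and 8.88 with PMA and 8.56, 8.14 and 8.77 with DMSO (-0.51 ± 0.33, adjusted p = 0.367). Array 3 of U937 PMA was the highest U937 array, and without it the difference was -0.95 with an adjusted p of 0.0236. Leaving out both U937 arrays numbered 2 gave -0.32 (adjusted p = 0.601).

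The PMA effect on ETV5 in THP-1 exceeded that in U937 by 2.60 ± 0.47 (adjusted p = 0.00233). The effect in HL60 minus that in THP-1 was -1.76 ± 0.47 (adjusted p = 0.0274), and the call was lost on leaving out any of 7 single arrays, with adjusted p-values up to 0.0727. ETV5 in THP-1 had the lowest DMSO value of the lines: HL60 DMSO exceeded THP-1 DMSO by 1.08 ± 0.33 (adjusted p = 0.0322, and 0.0548 to 0.121 on leaving out any of 5 single arrays of these groups), and THP-1 DMSO lay below U937 DMSO by 2.17 log2 units (-2.17 ± 0.33, adjusted p = 9e-05). With PMA, no difference between lines in ETV5 was called.

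ETV6, a repressor with a pointed oligomerization domain that is fused to RUNX1 in childhood leukaemia, fell in HL60. It was 7.75, 8.34 and 7.91 with PMA, against 9.09, 9.44 and 9.18 with DMSO, a 2.36-fold fall (-1.24 ± 0.31, adjusted p = 0.00706) with no overlap. All 11 probe sets were lower with PMA, by 0.86 to 1.62 log2 units (-0.86 to -1.62). In THP-1 ETV6 was 7.33, 7.39 and 7.92 with PMA and 7.37, 7.57 and 7.80 with DMSO (-0.03 ± 0.31, adjusted p = 0.957). The U937 values were 8.05, 7.44 and 9.10 with PMA and 8.69, 8.47 and 9.08 with DMSO (-0.55 ± 0.31, adjusted p = 0.271). The U937 difference was called with the array number as a block (adjusted p = 0.0278), without array 3 of U937 PMA it was -1.01 with an adjusted p of 0.00832, and without both arrays numbered 2 it was -0.32 and not called (adjusted p = 0.564). The effect in HL60 minus that in THP-1 was -1.20 ± 0.45, not called (adjusted p = 0.129) except under 7 of the 25 alternatives, the block among them (adjusted p = 0.00505).

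The levels of the members also differed between lines in DMSO. Between arrays of different lines the median of all genes was shifted (-0.23 for HL60 minus U937 and -0.31 for THP-1 minus U937, against 0.10 and -0.07 after centring), so these comparisons are read with the centred values. Of the 9 members, 3 differed between HL60 and THP-1 (16.6% of all genes), 4 between HL60 and U937 (22.9%) and 5 between THP-1 and U937 (26.2%). ETS1 was ordered HL60, THP-1, U937 by rising level, at 4.78 ± 0.35, 6.72 ± 0.23 and 8.47 ± 0.16 (SD, n = 3 each), and each step was called: -1.94 ± 0.21 (SE) for HL60 minus THP-1 and -1.74 ± 0.21 for THP-1 minus U937, with adjusted p-values of 3.04e-06 and 7.6e-06. ETV5 was ordered THP-1, HL60, U937, at 6.32 ± 0.07, 7.41 ± 0.32 and 8.49 ± 0.32. The step from HL60 to U937 (-1.08 ± 0.33, adjusted p = 0.025) was not called after centring (-0.76, adjusted p = 0.0669).

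ETV6 in DMSO was 9.23 ± 0.18 in HL60, 7.58 ± 0.21 in THP-1 and 8.75 ± 0.31 in U937. It was higher in HL60 than in THP-1 by 1.65 ± 0.31 (adjusted p = 0.00102) and lower in THP-1 than in U937 (-1.17 ± 0.31, adjusted p = 0.0107, and 0.0515 without array 3 of U937 DMSO), while HL60 minus U937 was not called as deposited (0.49 ± 0.31, adjusted p = 0.313) and was called after centring (0.81, adjusted p = 0.032). ERG was lower in HL60 DMSO (4.86 ± 0.07) and in THP-1 DMSO (4.75 ± 0.08) than in U937 DMSO (5.92 ± 0.21), with adjusted p-values of 0.000934 and 0.00033, and HL60 minus THP-1 was not called (0.11 ± 0.20, adjusted p = 0.777). ETS2 was lower in THP-1 DMSO (7.52 ± 0.29) than in U937 DMSO (8.56 ± 0.22), by -1.04 ± 0.23 (adjusted p = 0.00297), and HL60 DMSO, at 8.15 ± 0.23, was called different from neither as deposited. HL60 minus THP-1 for ETS2 (0.63 ± 0.23, adjusted p = 0.0802) was called in 5 of 25 alternatives. HL60 minus U937 (-0.41 ± 0.23, adjusted p = 0.25) was called in none. FLI1 was lower in HL60 DMSO (8.43 ± 0.41) than in U937 DMSO (9.31 ± 0.31), a call (-0.88 ± 0.27, adjusted p = 0.0256) that was lost after centring (-0.55, adjusted p = 0.0867). ELF1, ELF4 and ETV3 differed between no lines in DMSO as deposited, although centring called ELF1 between THP-1 and U937 (0.67, adjusted p = 0.0111).

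With PMA the order of ETS1 was HL60, U937, THP-1, at 5.82 ± 0.19, 7.68 ± 0.36 and 9.30 ± 0.15 (SD, n = 3 each). THP-1 PMA exceeded U937 PMA by 1.62 ± 0.21 (SE, adjusted p = 1.77e-05), and HL60 PMA lay below U937 PMA (-1.86 ± 0.21, adjusted p = 4.02e-06). ERG was highest in HL60 PMA, above THP-1 PMA by 1.17 ± 0.20 (adjusted p = 0.000331) and above U937 PMA by 0.79 ± 0.20 (adjusted p = 0.0091), the difference from U937 not being called with probe sets above the 30th percentile only (0.37, adjusted p = 0.209) or without array 2 of HL60 PMA (0.62, adjusted p = 0.0658). FLI1 was lowest in HL60 PMA, below THP-1 PMA (-1.26 ± 0.27, adjusted p = 0.00208) and U937 PMA (-1.08 ± 0.27, adjusted p = 0.00749). ETS2 was highest in U937 PMA: HL60 minus U937 was -1.22 ± 0.23 (adjusted p = 0.000868) and THP-1 minus U937 was -0.93 ± 0.23 (adjusted p = 0.00762). In all, 3 members differed between HL60 and THP-1 with PMA (23.5% of all genes), 4 between HL60 and U937 (20.8%) and 2 between THP-1 and U937 (21.5%).

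Within genes, a probe set's PMA effect was set against that of the rest of its gene. Of the 143 probe sets 123 entered this test, and calls were made at 1 log2 unit or more with an adjusted p below 0.05. There were 3 calls in HL60, 2 in THP-1 and 1 in U937, beside 2.78%, 1.5% and 1.01% of all probe sets tested. The files give probe-set identifiers but no exon coordinates, so positions in the transcripts are not given.

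The ETS2 probe set 3921084 went against its gene in HL60. Its log2 value was 7.16, 7.16 and 7.37 with PMA, against 6.72, 6.42 and 6.80 with DMSO, so that it was higher with PMA while 16 of the 18 probe sets were lower. Its difference from the rest of ETS2 was 2.34 (adjusted p = 5.48e-07; 2.20 and 0.00198 by the splicing index, a per-array difference between a probe set and its gene). The probe set next in identifier, 3921085, was level in HL60, at 8.19, 8.71 and 8.39 with PMA and 7.96, 8.52 and 8.76 with DMSO, a difference from its gene of 1.73 (adjusted p = 0.000555; 0.00139 by the splicing index). Without the filter on low probe sets the call on 3921085 was lost (adjusted p = 0.306), and 3921084 was called at an adjusted p of 0.0474. Over all 6 groups, 3921084 had means of 6.41 to 7.44 and 3921085 of 8.18 to 8.59. The ETS2 gene value ran from 6.60 to 8.56, and whether these 2 probe sets register ETS2 transcripts in these cells was not tested.

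The third ETS2 probe set called in HL60, 3921093, fell further than its gene (-1.26, adjusted p = 0.0332), to 3.72, 4.75 and 2.79 with PMA, against 6.40, 6.53 and 6.74 with DMSO. Its HL60 PMA mean of 3.75 lies below 5.17. The splicing index gave no call for it (adjusted p = 0.289), nor did the test without the filter on low probe sets (adjusted p = 0.595). The diffSplice call was also lost on leaving out any single HL60 array other than array 2 of HL60 PMA, with adjusted p-values between 0.0701 and 0.191. In U937, 3921084 was 7.51, 7.41 and 7.39 with PMA, against 6.18, 6.69 and 7.30 with DMSO, above the rest of ETS2 by 1.50 (adjusted p = 0.0126). That call was lost by the splicing index (adjusted p = 0.0829), and it was lost again when both U937 arrays numbered 2 were left out (adjusted p = 0.284). It was also lost without the filter on low probe sets (adjusted p = 0.584).

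**Figure D3:**
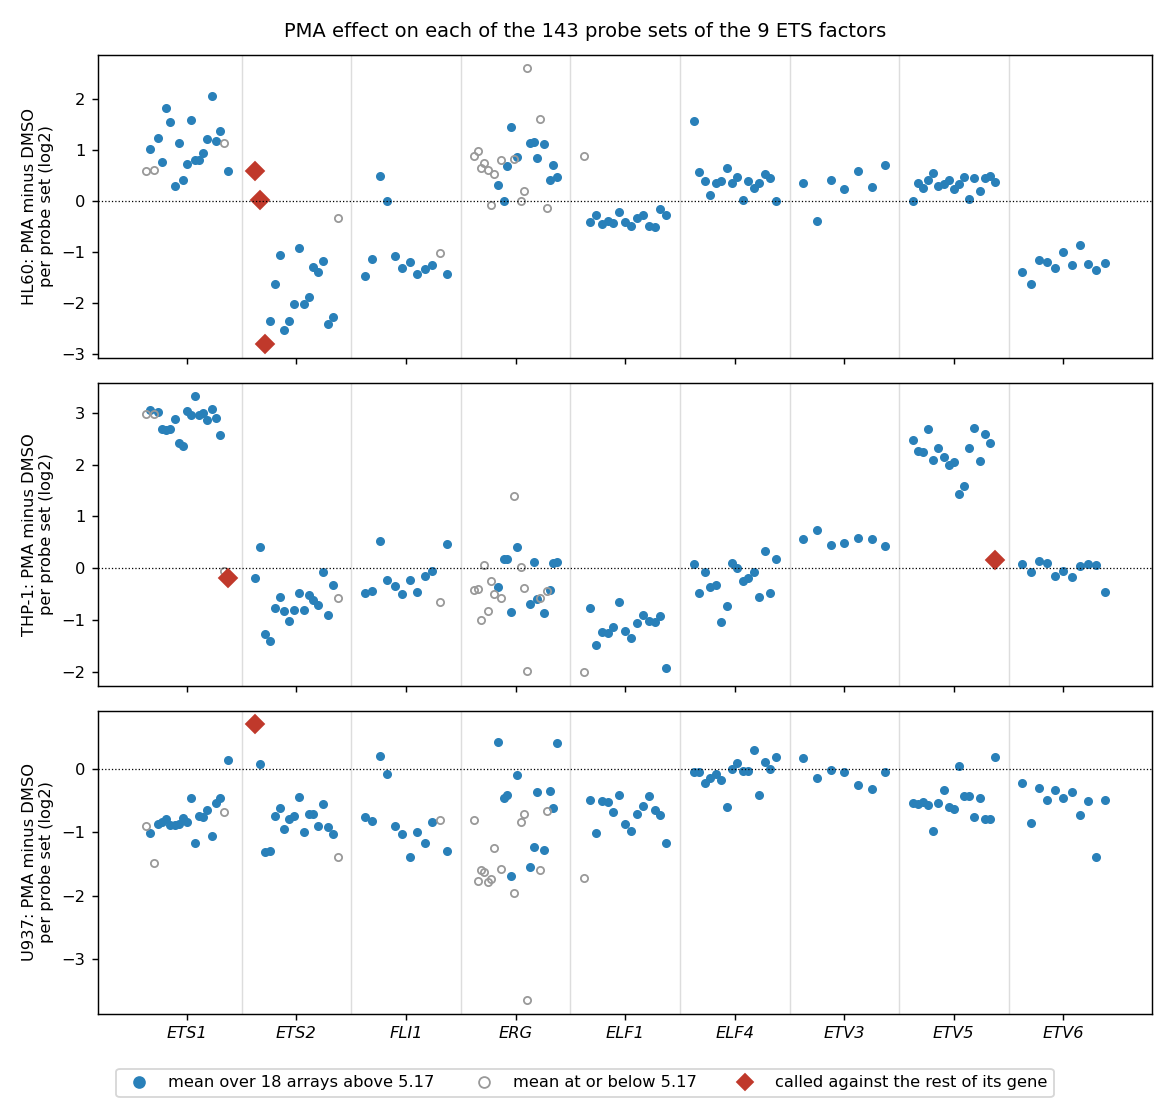
PMA effect (PMA minus DMSO, log2 units, vertical axis) on each of the 143 probe sets, grouped by gene and ordered by identifier, in HL60, THP-1 and U937; open points have a mean at or below 5.17, and diamonds were called against the rest of their gene. In HL60 the leftmost 2 probe sets of ETS2 lie at or above 0, apart from most of the gene, and in THP-1 the rightmost probe sets of ETS1 and ETV5 lie near 0.

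In THP-1 the ETS1 probe set 3397640, the last of its gene in identifier order, did not share the rise of ETS1. It was 6.42, 6.34 and 5.86 with PMA and 6.47, 6.02 and 6.71 with DMSO, below the rest of the gene by 3.04 log2 units (-3.04, adjusted p = 2.01e-09; 0.000235 by the splicing index). The ETV5 probe set 2709187, also last in identifier order, was 6.73, 6.04 and 6.89 with PMA and 6.55, 5.89 and 6.75 with DMSO in THP-1. It lagged the rest of ETV5 by 2.05 log2 units (-2.05, adjusted p = 0.00179; 0.00335 by the splicing index). Both calls held on leaving out each array of the line in turn. Both probe sets had group means above 5.17 in THP-1 with either agent. Over all 6 groups, however, 3397640 had means of 6.21 to 7.11, while the ETS1 gene value ran from 4.78 to 9.30. Likewise 2709187 had means of 6.39 to 6.89, while the ETV5 gene value ran from 6.32 to 8.49. Neither probe set followed its gene between lines, and whether they register these transcripts was not tested.

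**Figure D4:**
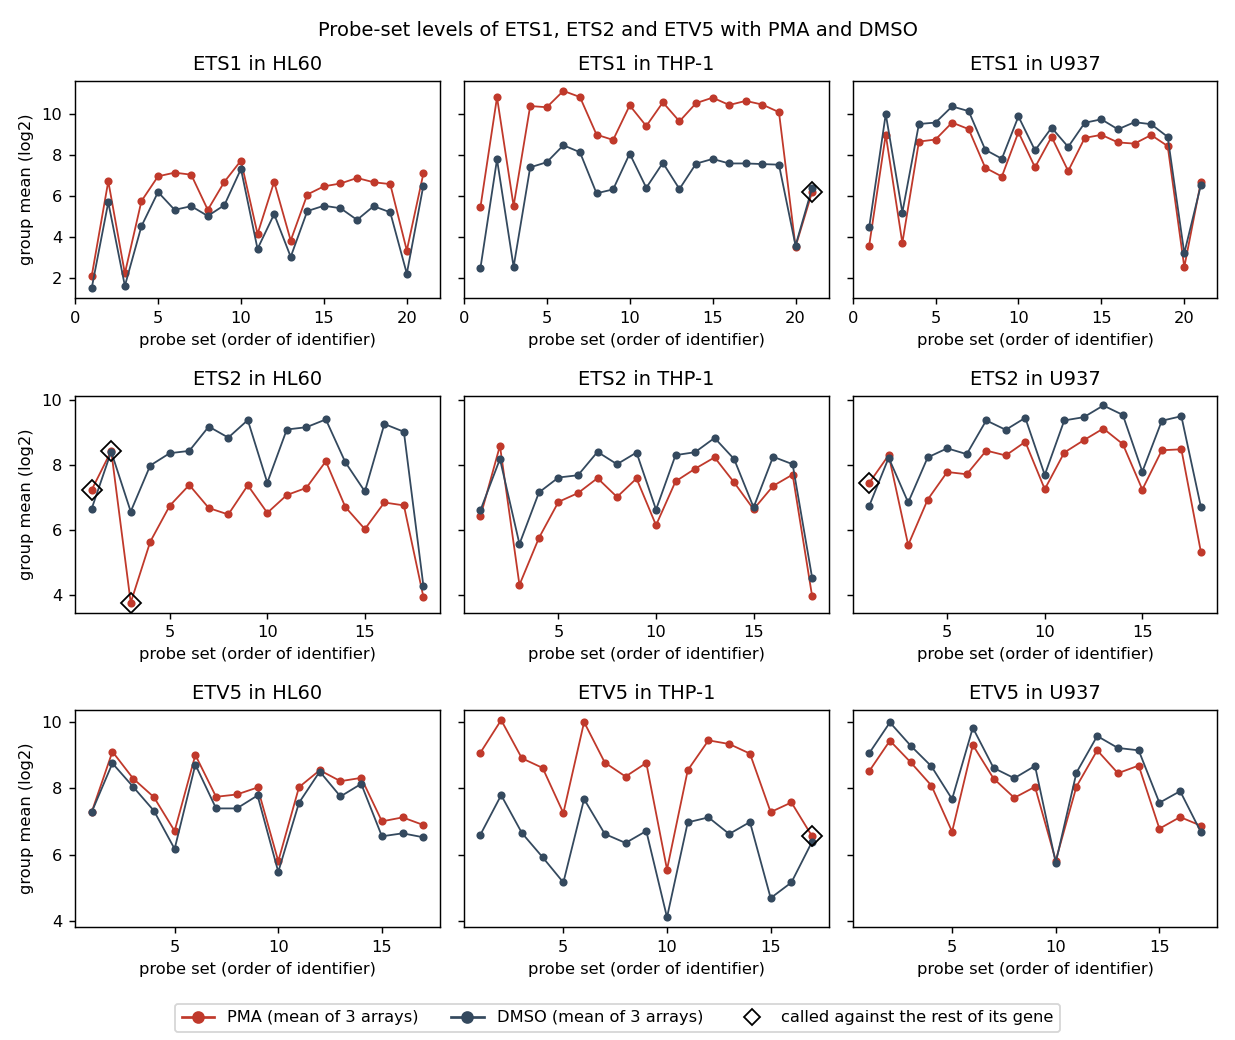
Group means of 3 arrays (log2, vertical axis) of the probe sets of ETS1, ETS2 and ETV5, in the order of their identifiers, with PMA and with DMSO in each line; open diamonds mark probe sets called against the rest of their gene. The PMA line of ETS1 in THP-1 runs above the DMSO line up to the last 2 probe sets, where the lines meet.

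Of the other ETS genes on the list used, 18 were measured, and ETV2 was not analysed here. In HL60 3 rose and 1 fell, in THP-1 3 rose and 1 fell, and in U937 none rose and 2 fell, beside 23%, 22.6% and 22% of all genes called. The calls in THP-1 depended on the scaling, with 7 higher and 2 lower under quantile normalization and 6 higher and 2 lower with centred arrays, and in U937 either gave 2 higher and 2 lower. Over all 16260 genes, quantile normalization called 2619 higher and 2611 lower in THP-1, and 2153 and 2305 in U937. Centring called 2731 and 2546 in THP-1, and 2350 and 2317 in U937. With the array number as a block 1 rose and 5 fell in U937, and without both U937 arrays numbered 2 it was 1 and 1. Over all genes the block called 1262 higher and 4141 lower in U937, and leaving out those arrays gave 1317 and 1656. The median PMA effect over the 18 was 0.14 in HL60, 0.22 in THP-1 and -0.04 in U937, beside 0.13, 0.04 and -0.07 over all genes. ETV1, a PEA3-group gene like ETV5, rose in HL60, at 4.63 ± 0.43 with PMA and 3.55 ± 0.20 with DMSO (SD, n = 3 each; effect 1.08, adjusted p = 0.00208), and in THP-1, at 4.30 ± 0.49 with PMA and 3.47 ± 0.06 with DMSO (effect 0.84, adjusted p = 0.0147). These levels lie below 5.17, and the THP-1 call was lost without array 2 of THP-1 DMSO (adjusted p = 0.0545) or of THP-1 PMA (adjusted p = 0.0987). ETV4, the third PEA3-group gene, fell in HL60 (effect -0.68, adjusted p = 0.0248, and up to 0.102 on leaving out array 2 or 3 of HL60 DMSO or array 1 or 2 of HL60 PMA) and in U937, at 6.72 ± 0.43 with PMA and 7.88 ± 0.12 with DMSO (effect -1.16, adjusted p = 0.000598).

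GABPA, the ETS subunit of GA-binding protein, which serves housekeeping and mitochondrial genes, fell in THP-1, at 6.69 ± 0.33 with PMA and 7.64 ± 0.19 with DMSO (effect -0.95, adjusted p = 0.00452). It fell in U937 as well (-0.70, adjusted p = 0.0309), a call lost without both U937 arrays numbered 2 (adjusted p = 0.14). The ternary complex factors, which bind with serum response factor, gave ELK1 higher in HL60 (0.56, adjusted p = 0.0324) and ELK3 higher in THP-1 (0.60, adjusted p = 0.0279). The ELK1 call was lost on leaving out array 1 or 3 of HL60 DMSO or array 2 or 3 of HL60 PMA, with adjusted p-values between 0.0619 and 0.155, and the ELK3 call on leaving out any THP-1 array, with adjusted p-values between 0.0599 and 0.0876. ERF, a repressor controlled by ERK, rose in HL60 (0.69, adjusted p = 0.0146, but 0.0604 without array 3 of HL60 DMSO and 0.073 without array 2 of HL60 PMA), and ETV3L rose in THP-1 (1.04, adjusted p = 0.00637), though not with probe sets above the 30th percentile alone (0.44, adjusted p = 0.133). SPI1, the myeloid regulator PU.1, was higher with PMA but not called in HL60 (0.63, adjusted p = 0.0509) and in U937 (0.59, adjusted p = 0.0684), at 9.79 ± 0.31 with PMA and 9.16 ± 0.31 with DMSO in HL60.

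**Figure D5:**
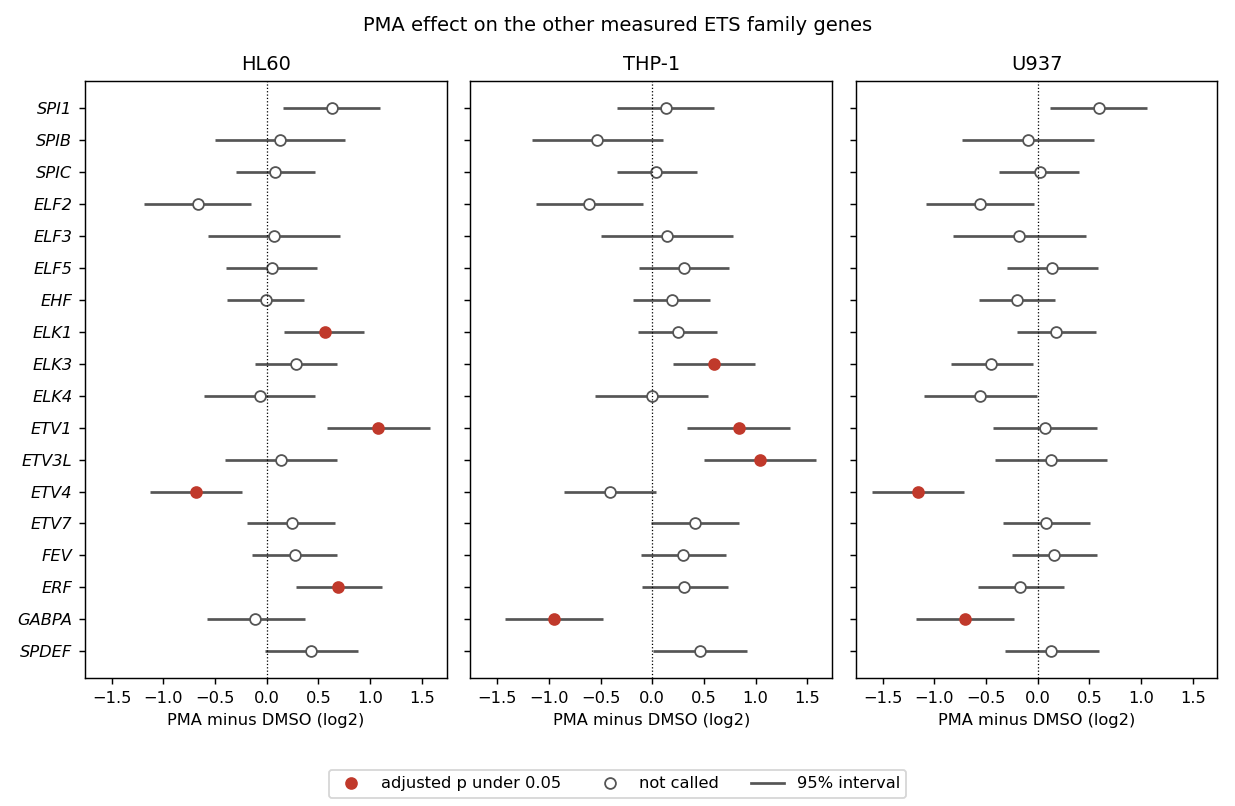
PMA effect (PMA minus DMSO, log2 units, horizontal axis) on the 18 other measured ETS family genes in each line, with 95% intervals; filled points have an adjusted p under 0.05. ETV1 lies at 1.08 in HL60 and 0.84 in THP-1, ETV4 at -1.16 in U937 and GABPA at -0.95 in THP-1.

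Partners and coregulators of ETS factors were lower where they were called as deposited. Of 17 measured, 3 fell in HL60, 5 in THP-1 and 7 in U937, beside 10.7%, 13.2% and 16.5% of all genes lower. None rose as deposited, and 1 rose in THP-1 with quantile normalization, beside 2619 of all 16260 genes. Their median effect was -0.30, -0.41 and -0.54, beside 0.13, 0.04 and -0.07 over all genes. SIN3A, a corepressor scaffold recruited by ETV6, fell in all 3 lines (-0.72, -0.92 and -1.17, adjusted p = 0.0343, 0.00809 and 0.00138), and its HL60 call was lost on leaving out any HL60 array (adjusted p up to 0.126). GABPB2, a beta subunit of GA-binding protein, fell in HL60 (-1.22, adjusted p = 0.00016), and GABPB1, the other beta subunit, fell in THP-1 (-1.10, adjusted p = 0.00798) and in U937 (-0.89, adjusted p = 0.029). DET1, part of the ubiquitin ligase that degrades PEA3-group proteins, fell in U937 (-1.16, adjusted p = 0.0161). The U937 calls of GABPB1 and DET1 were lost without both arrays numbered 2 (adjusted p = 0.27 and 0.182). The third gene called in HL60 was CBFB, and the others in THP-1 were RUNX1, CBFB and NCOR1, named here after their values were seen. Without both U937 arrays numbered 2, 4 rather than 7 fell in U937, and with the array number as a block 5 fell in HL60, 8 in THP-1 and 11 in U937. Over all 16260 genes, 1656 fell in U937 without those arrays. The block called 2591 lower in HL60, 3357 in THP-1 and 4141 in U937.

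Among ERK cascade kinases 5 of 10 were measured, and the calls as deposited were MAP2K1, which encodes MEK1, in THP-1 (1.12, adjusted p = 0.000469) and MAPK3, which encodes ERK1, in U937 (0.80, adjusted p = 0.00777). In U937 MAPK3 was not called with the U937 arrays alone (adjusted p = 0.0785), and its call held without both arrays numbered 2. The counts of this list depended on the scaling: quantile normalization and centring each called 4 of the 5 higher in THP-1 and 3 higher in U937. Over all 16260 genes, quantile normalization called 2619 higher in THP-1 and 2153 in U937, and centring 2731 and 2350. As deposited 1524 (9.37%) and 895 (5.5%) were higher. With the array number as a block, or without both U937 arrays numbered 2, 2 were higher and 1 lower in THP-1 and 2 were higher in U937. Over all genes the block called 2288 higher and 3357 lower in THP-1 and 1262 higher in U937. Without those arrays the numbers were 2282, 2697 and 1317. Of 21 measured genes described as ETS targets, 9 rose and 1 fell in HL60, 10 rose and none fell in THP-1, and 5 rose and none fell in U937, beside 12.3%, 9.37% and 5.5% of all genes higher. Their median effect was 0.42, 0.45 and 0.25, beside 0.13, 0.04 and -0.07 over all genes. This list, like the others, was chosen with earlier results of these data known. Its counts are therefore a description and no test of ETS action. The gene that fell in HL60 was PLAU, for urokinase (-1.67, adjusted p = 1.03e-05), named after its value was seen, and it rose in THP-1 (0.91, adjusted p = 0.00404). With quantile normalization or centring, 11 of the 21 rose in U937, with the array number as a block 8 rose and 1 fell there, and without both U937 arrays numbered 2, 9 rose. Over all 16260 genes, 2153 and 2350 rose in U937 with quantile normalization and centring. The block called 1262 higher and 4141 lower there, and 1317 were higher without those arrays.

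The largest effects among these targets were on proteases and an inhibitor. MMP1, the interstitial collagenase, was 6.27 ± 0.82 with PMA and 3.96 ± 0.25 with DMSO in HL60, 10.82 ± 0.44 with PMA and 3.60 ± 0.14 with DMSO in THP-1, and 12.51 ± 0.27 with PMA and 6.57 ± 2.00 with DMSO in U937 (SD, n = 3 each). TIMP1, a metalloproteinase inhibitor, rose by 4.66 in HL60, 2.50 in THP-1 and 2.06 in U937. MMP9, gelatinase B, rose by 2.92, 4.55 and 4.44 in the same order. MMP3, stromelysin, rose in THP-1 (1.90, adjusted p = 0.048) and in U937 (2.74, adjusted p = 0.00548), and the THP-1 call was lost in 14 alternatives, with adjusted p-values of 0.0534 to 0.186. The MMP1 call in HL60 (2.30, adjusted p = 0.0124) was lost without array 1 of HL60 PMA (adjusted p = 0.0659).

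The genes whose values over the 18 arrays were most like those of the 3 members with the largest effects were listed by Pearson's r, as a description. The arrays fall into lines and agents, which these correlations share. For ETS1 they were CD99 (0.951), CACNB4 (0.945) and PODXL (0.945). Their PMA effects in HL60, THP-1 and U937 were 0.82, 1.12 and 0.20 for CD99, -0.02, 1.45 and -0.73 for CACNB4, and 0.47, 1.68 and -1.44 for PODXL, beside 1.04, 2.58 and -0.78 for ETS1. For ETV5 they were TTL (0.907), SIPA1L1 (0.901) and OSBPL3 (0.892), with effects of 1.05, 1.40 and 2.75 in THP-1 and -0.03, -0.27 and -0.66 in U937. For ETS2 they were ARHGAP19 (0.966), RGS18 (0.95) and TAGAP (0.944), with effects of -2.57, -2.68 and -1.90 in HL60.

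ETS1 and FLI1 lie on the same stretch of chromosome 11 (positions 128458765 to 128587558 and 128685132 to 128813267, GRCh38.p14), and ERG and ETS2 on chromosome 21 (38367261 to 38661783 and 38805183 to 38824955). The neighbours did not move together in HL60: ETS1 rose and FLI1 fell, and ERG rose and ETS2 fell. In U937 all 4 fell as deposited, and in THP-1 ETS1 rose with FLI1 not called. Without both U937 arrays numbered 2, only the ERG fall was still called in U937 (adjusted p = 0.0895 for ETS1, 0.191 for ETS2 and 0.257 for FLI1). ETV6 lies on chromosome 12 (11649674 to 11895377), ETV5 on chromosome 3 (186046314 to 186109089), ETV3 on chromosome 1 (157121191 to 157138395), ELF1 on chromosome 13 (40931919 to 41061386) and ELF4 on chromosome X (130063955 to 130111858).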

How the data were processed

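The deposited files hold log2 probe-set values made by the authors, 1 column for each of 18 exon arrays. Affymetrix Expression Console is named in the submitters' processing notes, with the version, the normalization method and any batch not given in the sources used here. Nothing was normalized again for the main values.

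Probe sets were named from the platform's probe-gene table: 261273 had 1 gene symbol, 9155 several and 16901 none. Of 16941 symbols, 14546 were current, 2276 were updated and 119 were kept. A gene value is the mean of a gene's log2 probe sets, for 16260 genes with at least 3. One limma fit (limma 3.58.1, R 4.3.3) of 6 group means gave each comparison, with 12 residual degrees of freedom, Benjamini-Hochberg adjustment over all genes and a call at an adjusted p under 0.05. The number of arrays limits the precision: the median SE of a PMA effect was 0.226.

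Probe sets were set against the rest of their gene with diffSplice (limma) and by limma on the splicing index. The test took 175137 probe sets with a mean above 5.17, in 11978 genes with at least 5. Both methods were run on simulated data, with a limit set on the false calls of the splicing index and none on those of diffSplice alone. Their rates of false calls are not given here. Alternatives were quantile normalization, centring, the median of probe sets, probe sets above the 30th percentile, the array number as a block, arrays of the lines compared only, no U937 arrays numbered 2, and each array left out. In the check of pairing, PMA and DMSO arrays of the same number in the titles deviated together, with correlations of 0.28 to 0.79 in all 9 such pairs of arrays (3 in each line) against -0.65 to 0.44 for other numbers. The ranges overlap, so arrays of the same number may be paired, but this is not certain. The main fit left the numbers out, and a pairing enters only through the array-number block. Called and not called refer to the unpaired fit unless the block is named.

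Members and lists were chosen with earlier results of these data known. The text names all members, each other ETS gene called in a line, at most 4 genes per other list by the size of the effect, the 3 genes most like each of 3 members, and called probe sets. The promoter windows and gene positions are RefSeq's on GRCh38.p14, and figures were drawn with matplotlib 3.10.9.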

Additional observations from a re-analysis of the deposited data

Results flagged for a closer look

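The PMA effect differed between lines for ETS1, ERG and ETV5 by the test of the difference itself (limma, Benjamini-Hochberg over all genes). ETS1 differed in all 3 pairs of lines, by -1.54 for HL60 minus THP-1, 1.82 for HL60 minus U937 and 3.36 for THP-1 minus U937. Each of these calls held in all 25 alternatives. The ETS1 mean in HL60 DMSO, which enters the differences with HL60, was 4.78 and so below 5.17. ERG, whose levels lie near or below 5.17, differed by 1.85 for HL60 minus U937, a call that held in all 25 alternatives, and by 1.07 for HL60 minus THP-1, which was lost with the median of probe sets and on leaving out any of 8 single arrays. ETV5 differed by 2.60 for THP-1 minus U937, in all 25 alternatives, and by -1.76 for HL60 minus THP-1, lost on leaving out any of 7 single arrays.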

How the results depend on the processing

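Each alternative changed 1 choice, and no called PMA effect on a member changed sign. Of 675 comparisons of a member's PMA effect with its value under an alternative, 611 kept the direction and the side of the threshold, 32 lost a call, 16 gained a call and 16 changed sign without being called. The PMA effects on ETS1, ETS2 and ETV6 in HL60, on ETS1, ELF1 and ETV5 in THP-1 and on ERG in U937 were called in all 25 alternatives. With the array number as a replicate block, 5 members were called in THP-1 in place of 3. The PMA effect then differed between HL60 and THP-1 for 7 members in place of 3, beside 2523 of all genes in place of 1265. The called probe sets were 7 in HL60 in place of 3 and 3 in U937 in place of 1. The block called 5 members in HL60, 6 in U937, and over all genes 5575 in HL60, 5645 in THP-1 and 5403 in U937, in place of 3745, 3667 and 3573. In U937 the members called were 3 with quantile normalization, 3 with centred arrays, 3 with the median of probe sets, 1 with the U937 arrays alone and 1 without both U937 arrays numbered 2, in place of 5. Over all genes the same settings called 4458, 4667, 3173, 3028 and 2973 in U937, in place of 3573. In THP-1 the THP-1 arrays alone called 5, beside 3875 of all genes. Differences between HL60 and THP-1 in the PMA effect were called for 6 members with quantile normalization and 5 with centred arrays. Over all genes these settings called 2322 and 2161, in place of 1265. Between HL60 and THP-1 with PMA the calls were 6 with quantile normalization, 5 with centred arrays, 5 with these lines alone and 5 without both U937 arrays numbered 2, in place of 3. Over all genes the same settings called 5258, 5049, 5323 and 5360, in place of 3827. Between THP-1 and U937 with PMA the calls were 4 without both U937 arrays numbered 2, in place of 2, beside 7139 of all genes in place of 3488. Exon calls in U937 were 0 by the splicing index and 0 without those arrays, and in THP-1 they were 5 with no filter on low probe sets, in place of 2. Counts over all probe sets are not given for the exon calls under the block or the other alternatives. Leaving out each array in turn gave 3 to 5 members called in HL60, 3 to 5 in THP-1 and 1 to 5 in U937. It gave 2 to 4, 2 to 4 and 4 to 5 for DMSO levels (HL60 with THP-1, HL60 with U937, THP-1 with U937), 3 to 5, 3 to 5 and 2 to 4 for PMA levels, 1 to 4, 2 to 3 and 2 for differences of effects, and 2 to 3, 2 to 3 and 0 to 2 exon calls in HL60, THP-1 and U937. Of all called genes, 58.4% were lower in THP-1 as deposited, 49.9% with quantile normalization and 48.2% with centring, and in U937 75% were lower as deposited, 51.7% with quantile normalization and 49.6% with centring. The files give no detection call, so how much of the low values of ERG, of ETV1 and of ETS1 in HL60 DMSO is background was not tested.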
